A study of Mus musculus with 12 samples.

Results

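Cytosolic ribosomal protein genes were taken as all genes whose symbol is Rpl or Rps with digits and at most 1 further letter (a, x, y or l), or Rplp0, Rplp1, Rplp2 or Rpsa. Of 19938 genes measured by a probe set with a single symbol, 59 met this rule, 37 named for the large subunit and 22 for the small subunit. Of the 59, 6 are relatives or copies of the standard genes, namely Rpl3l, Rpl10l, Rpl39l, Rpl32l, Rps4l and Rps27l, and the other 53 are called core genes here. A further 16 genes that fit the naming pattern, Rpl3, Rpl11, Rpl39 and Rps27 among them, were measured by probe sets that carry several symbols, and were not analysed here.

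RNA came from epithelium of intestinal tumors, or from epithelium next to them, cut by laser from stained sections of male mice that were 25 weeks old or, per the labels' protocols, taken earlier for weight loss. All mice were on a C57BL6/J APCmin/+ background, in which an inactivated copy of Apc leads to intestinal adenomas. In FSPCre-PPARB -/- mice, called KO, Cre runs under the promoter of fibroblast-specific protein and deletes Ppard, which encodes a fatty acid sensor of the PPAR family of nuclear receptors, while the cut tissue was epithelium. Their PPARB flox/flox littermates, called floxed, carry no label of Cre. There were 3 KO and 3 floxed arrays of tumor epithelium, and 2 KO and 2 floxed arrays of adjacent epithelium. Another 2 arrays labelled adjacent carry opposite genotypes in title and genotype field. In conflict array 1 the title reads KO and the field floxed, and in conflict array 2 the title reads floxed and the field KO. The labels do not tie arrays to animals, so p-values measure the spread between arrays, part of which may be technical.

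Ribosomal proteins are needed in nearly equal amounts to build ribosomes, and their genes are among the most strongly transcribed of growing cells. Their mRNAs start with a run of pyrimidines, the 5′ terminal oligopyrimidine (TOP) tract, through which mTORC1 and the RNA-binding protein LARP1 control their translation. The transcription factor MYC raises their transcription. In the intestine, ribosome production is known to be high in the dividing cells of the crypts and to fall as cells mature into absorptive enterocytes.

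The TOP tract is what these mRNAs share at their start, so the start of some of the genes described below is shown. Each sequence gives 20 bases before and 10 bases from the RefSeq transcript start of GRCm38.p6, 5′ to 3′ on the gene's strand. Capitals mark a tract, a C at the start followed without a gap by at least 4 bases that are C or T.
Rpl28 (chr7:4792945-4792974, + strand): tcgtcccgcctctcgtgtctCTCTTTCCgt
Rps21 (chr2:180257359-180257388, + strand): gcacttaccgaggacccgccCTCCTgccca
Rps18 (chr17:33955656-33955685, - strand): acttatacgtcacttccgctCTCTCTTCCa
Rpl38 (chr11:114668560-114668589, + strand): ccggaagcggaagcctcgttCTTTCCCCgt
Rps6 (chr4:86857358-86857387, - strand): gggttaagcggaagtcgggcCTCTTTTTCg
Rps10 (chr17:27635235-27635264, - strand): acgctgcgccgcgcacgcccCTTCCTTTCC
Rpl5 (chr5:107900508-107900537, + strand): ctctttctcacgtcgcttgcgtgctggtgg
Rpl27a (chr7:109519175-109519204, + strand): cgcgagacttcgtgagctcctcccttttcc
Rps21 has another annotated start, at chr2:180257429-180257458, without a tract. The last pair had no tract at the annotated base, and the letters of Rpl27a show a pyrimidine run that overlaps the annotated start. A tract exactly at the annotated start was found for 10 of 47 ribosomal protein genes with a window (21.3%), against 813 of 27025 genes of the whole table (3.01%). Starting anywhere within 10 bases of it, a tract was found for 28 of 47 (59.6%), against 34.4% of the table. Only the gene's own strand was read, and a match is a run of letters and not a measured start.

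The arrays differed in signal, and this went with genotype. Of the floxed arrays, tumor 1, tumor 2, adjacent 1 and adjacent 2 had correlations of only 0.496 to 0.640 with any other array over all probe sets, and are called weak-signal arrays. The SD of all values within an array was 1.04 to 1.09 on these and 1.49 to 1.57 on the other 8. The only floxed array of settled label without weak signal was floxed tumor array 3. Its exocrine pancreas markers averaged 7.97 (log2, 8 of 10 measured), against 4.43 to 6.58 on the KO arrays. Levels of 10 intestinal epithelial markers averaged 6.64 to 7.59 on the KO tumor arrays and 5.28, 6.38 and 8.50 on the floxed tumor arrays. Fibroblast markers averaged 4.44 to 5.23 on all arrays.

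On the KO arrays the tissue labels did not match marker lists chosen after the data were seen. Adenomas of APCmin/+ mice are known for high Wnt target expression, but 11 measured Wnt target and crypt genes averaged 4.84, 4.79 and 4.85 on the KO arrays labelled tumor, against 5.70 and 5.95 on the KO arrays labelled adjacent. Absorptive enterocyte genes averaged 7.64, 8.19 and 7.91 on the KO arrays labelled tumor and 6.84 and 6.03 on those labelled adjacent. On the floxed arrays the Wnt list averaged 4.52, 4.52 and 4.71 on tumor and 4.53 and 4.58 on adjacent, which overlap, and the enterocyte list 7.35, 5.61 and 8.59 on tumor and 5.95 and 4.98 on adjacent. Tumor and adjacent below are the labels of the arrays.

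The level of the ribosomal protein genes as a group differed between arrays. Their median was 6.80, 7.02 and 6.62 (log2) on the KO tumor arrays, against 5.85, 5.75 and 7.70 on the floxed tumor arrays. It was 7.80 and 7.82 on the KO adjacent arrays, against 6.03 and 6.16 on the floxed adjacent arrays. The conflict arrays held 8.50 and 7.22, while the median of all genes stayed between 4.38 and 4.53. The 4 weak-signal arrays had the 4 lowest medians, and conflict array 1 the highest. Within the KO arrays, tumor and adjacent medians did not overlap.

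**Figure D1:**
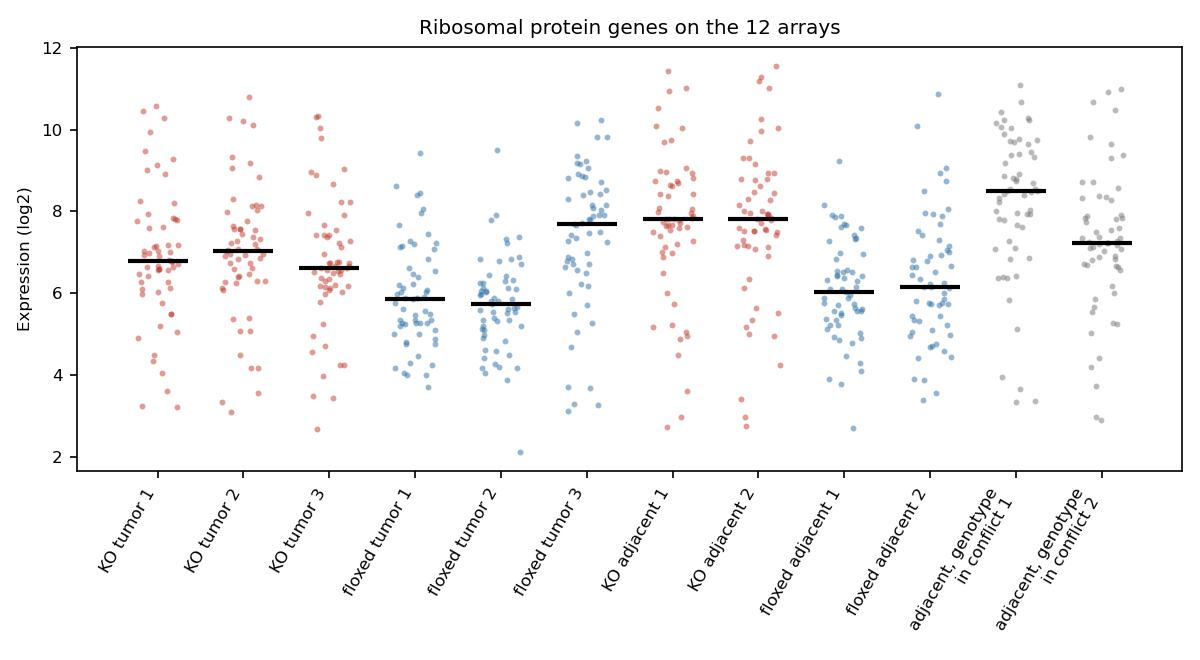
Each point is 1 of the 59 ribosomal protein genes on 1 array (log2 expression, vertical axis), and black bars are medians. KO arrays are red, floxed arrays blue and adjacent arrays of conflicting genotype grey. The 4 weak-signal floxed arrays have the lowest medians (5.75 to 6.16), and floxed tumor array 3 (7.70) lies above the KO tumor arrays (6.62 to 7.02).

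The comparison named in the study's title set KO against floxed tumor epithelium. Of the 59 genes, 1 was higher in KO and 0 were lower at a limma adjusted p under 0.05, against 1.08% of all genes called in either direction (0.682% higher and 0.396% lower). Without adjustment 20 of 59 (33.9%) had a p under 0.05, against 23.0% of all genes. The median difference over the 59 genes was 0.45 on the log2 scale, with 40 above 0 (67.8%, against 49.6% of all genes), and that over all genes was -0.01. With the replicate number as a block, 3 were higher and 0 lower, against 3.92% of all genes called, 2.15% higher and 1.77% lower. They were Rpl5, Rpl37a and Rpl32l. No label says what a replicate number shares, so these 3 calls rest on an assumed pairing.

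That median joined floxed arrays that lay on opposite sides of the KO arrays. The KO tumor mean was above floxed tumor array 1 for 45 of 59 genes (median difference 1.03) and above floxed tumor array 2 for 46 (median 1.13). It was above floxed tumor array 3 for 15 only (median -0.65). Leaving out floxed tumor array 3 gave 30 genes higher and 3 lower, against 29.1% of all genes called. Leaving out the weak-signal arrays, which left floxed tumor array 3 alone and took the spread from the KO arrays, gave 5 higher and 28 lower, against 9.47% and 9.92% of all genes, or 19.4% in either direction. The direction of the group as a whole in KO against floxed tumor epithelium thus depended on which floxed array was used. Over all 3 floxed arrays, the median was 0.17 after quantile normalization and 0.0645 with arrays brought to 1 median and SD.

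**Figure D2:**
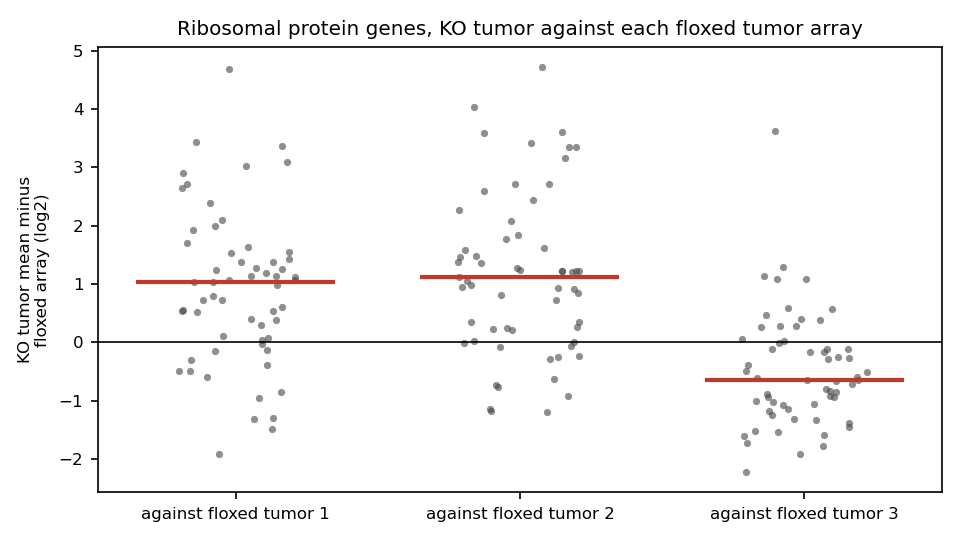
Each point is 1 of the 59 ribosomal protein genes, and its height is the mean of the 3 KO tumor arrays minus 1 floxed tumor array (log2), with red bars at the medians. Most genes lie above 0 against floxed tumor arrays 1 and 2 (medians 1.03 and 1.13) and below 0 against floxed tumor array 3 (median -0.65). The highest point in each column is Rpl5.

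Rpl5, a large subunit protein that with Rpl11 and a ribosomal RNA forms the particle that inhibits the p53 ligase MDM2, was the gene that passed. It was measured at 10.45, 10.28 and 10.05 on the KO tumor arrays, against 5.56, 5.54 and 6.64 on the floxed tumor arrays. All 3 KO arrays lay far above all 3 floxed arrays, with a difference of 4.35 ± 0.36 (log2, SE, n = 3 and 3; limma adjusted p = 0.00144). In adjacent epithelium it was 11.02 and 11.28 on the KO arrays, against 5.53 and 6.63 on the floxed arrays. The conflict arrays held 7.82 and 10.92.

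The other 4 probe sets named Rpl5 gave another picture. They ranged from 6.59 to 7.72 over the KO tumor arrays, against 6.97 to 7.38 on floxed tumor array 3, where the probe set of the highest mean read 6.64. The KO tumor mean minus floxed tumor array 3 was 3.62 for the probe set of the highest mean and -0.24 to 0.20 for the other 4. Against all 3 floxed tumor arrays those 4 gave 1.13 to 1.74. With the mean of a gene's probe sets in place of the highest, Rpl5 differed by 2.01 and did not pass, and 0 of the 59 genes were called in tumor epithelium. The 3.86 between its highest and lowest probe set was the widest spread of the 39 genes with several probe sets. What each probe set matches in the genome was not examined.

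**Figure D3:**
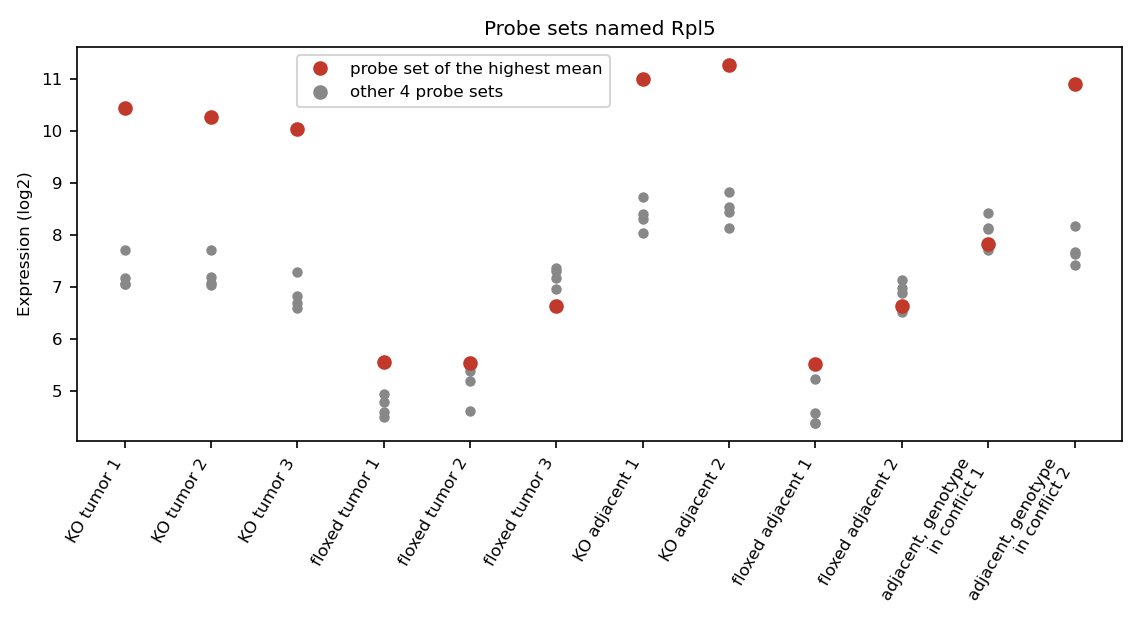
Points are the 5 probe sets named Rpl5 on each of the 12 arrays (log2 expression), in red for the probe set of the highest mean and in grey for the other 4. The red points stand at 10.05 to 11.28 on the 5 KO arrays and conflict array 2, apart from the grey points, and lie at or near the grey points on the floxed arrays and conflict array 1.

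Rpl37a and Rpl32l followed Rpl5 in order of p among the genes above 0. Rpl37a, a zinc-binding protein of the large subunit, was 9.14, 9.05 and 8.97 on the KO tumor arrays, against 5.62, 6.45 and 8.47 on the floxed tumor arrays. Rpl32l was 9.47, 8.12 and 8.67 on the KO tumor arrays, against 5.85, 6.04 and 7.66 on the floxed tumor arrays. In both, every KO array lay above every floxed array. The differences were 2.21 ± 0.56 for Rpl37a (log2, SE, n = 3 and 3; limma adjusted p = 0.0766) and 2.24 ± 0.51 for Rpl32l (adjusted p = 0.0639). The difference of Rpl37a against floxed tumor array 3 alone was 0.59. Rpl32l has a single probe set, and Rpl32 was measured only by probe sets with several symbols. Whether the probe set of Rpl32l also matches Rpl32 mRNA was not examined.

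Below 0, the smallest p-values were those of Rpl27, Rpl34 and Rps29. Rpl27 was 6.12, 6.86 and 6.50 on the KO tumor arrays, against 7.46, 7.23 and 8.04 on the floxed tumor arrays. Its groups did not overlap, with a difference of -1.08 ± 0.29 (log2, SE, n = 3 and 3; limma adjusted p = 0.0833). Rpl34 differed by -0.86 (adjusted p = 0.107) without overlap. Rps29, a small zinc-binding protein of the small subunit, differed by -1.10 (adjusted p = 0.168) with overlap. Groups did not overlap for 8 of 59 genes above 0 and 2 below, against 13.2% and 13.9% of all genes.

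Against floxed tumor array 3 alone, the genes that were lower included Rps19, Rps29, Rpl41, Rpl27a and Rpl7a. Rps19, the protein most often mutated in human Diamond-Blackfan anemia, was 6.80, 6.47 and 6.21 on the KO tumor arrays and 8.72 on floxed tumor array 3. Floxed tumor arrays 1 and 2 held 7.08 and 6.78, of which only array 1 lay above all 3 KO arrays. The difference to array 3 was -2.23. Of the 5 genes that were higher, Rplp2, a protein of the acidic stalk that recruits elongation factors, was 4.90, 5.07 and 4.94 on the KO tumor arrays and 3.68 on floxed tumor array 3. Floxed tumor arrays 1 and 2 held 5.27 and 5.89, above all KO tumor arrays. These calls rest on 1 floxed array, and the spread between floxed arrays does not enter them.

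In adjacent epithelium, KO stood above floxed for most of the group. Of the 59 genes, 13 were higher in KO and 0 lower (limma adjusted p under 0.05), against 6.06% of all genes called in either direction, 2.91% higher and 3.15% lower. The median difference was 1.51 (log2), with 53 of 59 above 0, and that over all genes was -0.04. In all 39 genes with several probe sets, every probe set lay above 0. Groups did not overlap for 44 of 59 genes above 0, against 32.1% of all genes.

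Both floxed arrays in that comparison had weak signal, and most calls were lost once the conflict arrays entered the groups. The call count was 0 with the conflict arrays read by title and 1 with them read by the genotype field, where 0.00502% and 0.241% of all genes were called. Most calls were also lost when 1 array was left out, which left 1 array in a group, and calls over all genes fell too. The median was then 1.41 to 1.55. After quantile normalization or with arrays brought to 1 median and SD, Rpl5 and Rpl37a were higher and Rpl29 lower, against 0.642% and 0.823% of all genes called, with medians of 0.92 and 0.80.

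Among the 13 genes, Rpl5 differed by 5.07 with its probe set of the highest mean, but by 2.03 to 3.24 with its other 4 probe sets. Rpl37a, with a single probe set, differed by 4.16, Rpl19 by 2.96, Rps9 by 2.88, Rpl32l by 2.81 and Rpl28 by 2.73 (log2 differences). Rpl37a was 10.08 and 10.25 on the KO adjacent arrays, against 6.15 and 5.86 on the floxed adjacent arrays (4.16 ± 0.68, SE, n = 2 and 2; limma adjusted p = 0.0163). Rpl6 (2.29), Rps19 (2.18), Rplp0 (2.06), the scaffold of the stalk, and Rps12 (1.83) were also among them, but Rps12 turned to -0.31 with arrays brought to 1 median and SD. Rpl23 (1.53), Rps4l (1.36) and Rps3 (1.25), which lines the mRNA entry channel, completed the list. None of the 13 was lower in KO, and 7 were large subunit core genes, 4 small subunit core genes and 2 relatives.

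Among the genes below 0 in adjacent epithelium were Rpl29, Rpl10l and Rpl39l, of which the last pair are relatives known for expression in testis. Rpl10l was 2.73 and 2.75 on the KO adjacent arrays, against 4.90 and 3.90 on the floxed adjacent arrays. Its difference was -1.66 ± 0.67 (log2, SE, n = 2 and 2; limma adjusted p = 0.137). Testis markers averaged 3.46 and 3.58 on the KO adjacent arrays and 4.42 and 4.85 on the floxed adjacent arrays, both of weak signal. On floxed tumor arrays 1, 2 and 3 these markers averaged 3.98, 4.62 and 3.49, and Rpl10l read 4.82, 2.12 and 3.27. The part of testis markers or of weak signal in the values of Rpl10l was not tested.

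Tumor against adjacent epithelium within KO set the group on one side. Of the 53 core genes 52 lay below 0, with medians of -0.89 on the large subunit and -1.02 on the small subunit, while Wnt targets were also lower on these arrays labelled tumor. The median difference over the 59 genes was -0.89 (log2), with 55 below 0, and the median over all genes was 0.04, with 42.7% below 0. In 52 of 59 genes every KO tumor array lay below both KO adjacent arrays, against 14.1% of all genes. In bulk samples, fewer cells of a type and less RNA per cell cannot be told apart.

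In the fit of all 10 arrays with settled labels, whose spread includes the weak-signal arrays, 0 of the 59 genes passed, against 0.0201% of all genes. At an unadjusted p under 0.05 there were 15 (25.4%), against 2.47% of all genes. A fit over the 5 KO arrays alone was chosen after the data were seen. In it, 30 were lower and 0 higher at a limma adjusted p under 0.05, against 1.85% of all genes called and 1.29% lower. These 30 were 17 of 33 large subunit core genes, 13 of 20 small subunit core genes and 0 of 6 relatives. Of the relatives, Rpl10l, Rpl39l and Rpl3l had means of only 3.40, 3.39 and 3.67 over the 12 arrays (log2), below the median of all genes on any array, where low signal limits what a difference can show. The median is the same in both fits by construction, since both take the differences from the same group means.

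The count over the KO arrays rested on both adjacent arrays. Without KO adjacent array 1 or without KO adjacent array 2 it was 0, where 0.321% and 0.0502% of all genes were called, with 44 of 59 genes at an unadjusted p under 0.05 in each. It was 21, 14 and 36 without KO tumor arrays 1, 2 and 3, of which 1 gene of the 36 was higher, against 1.57%, 0.281% and 3.17% of all genes. With conflict array 1 or conflict array 2 added as a KO adjacent array it was also 0, against 0.0853% and 0.0% of all genes, with 46 and 48 of 59 genes at an unadjusted p under 0.05 and 55 of 59 below 0 in both. The median stayed between -1.10 and -0.76 in these fits.

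**Figure D4:**
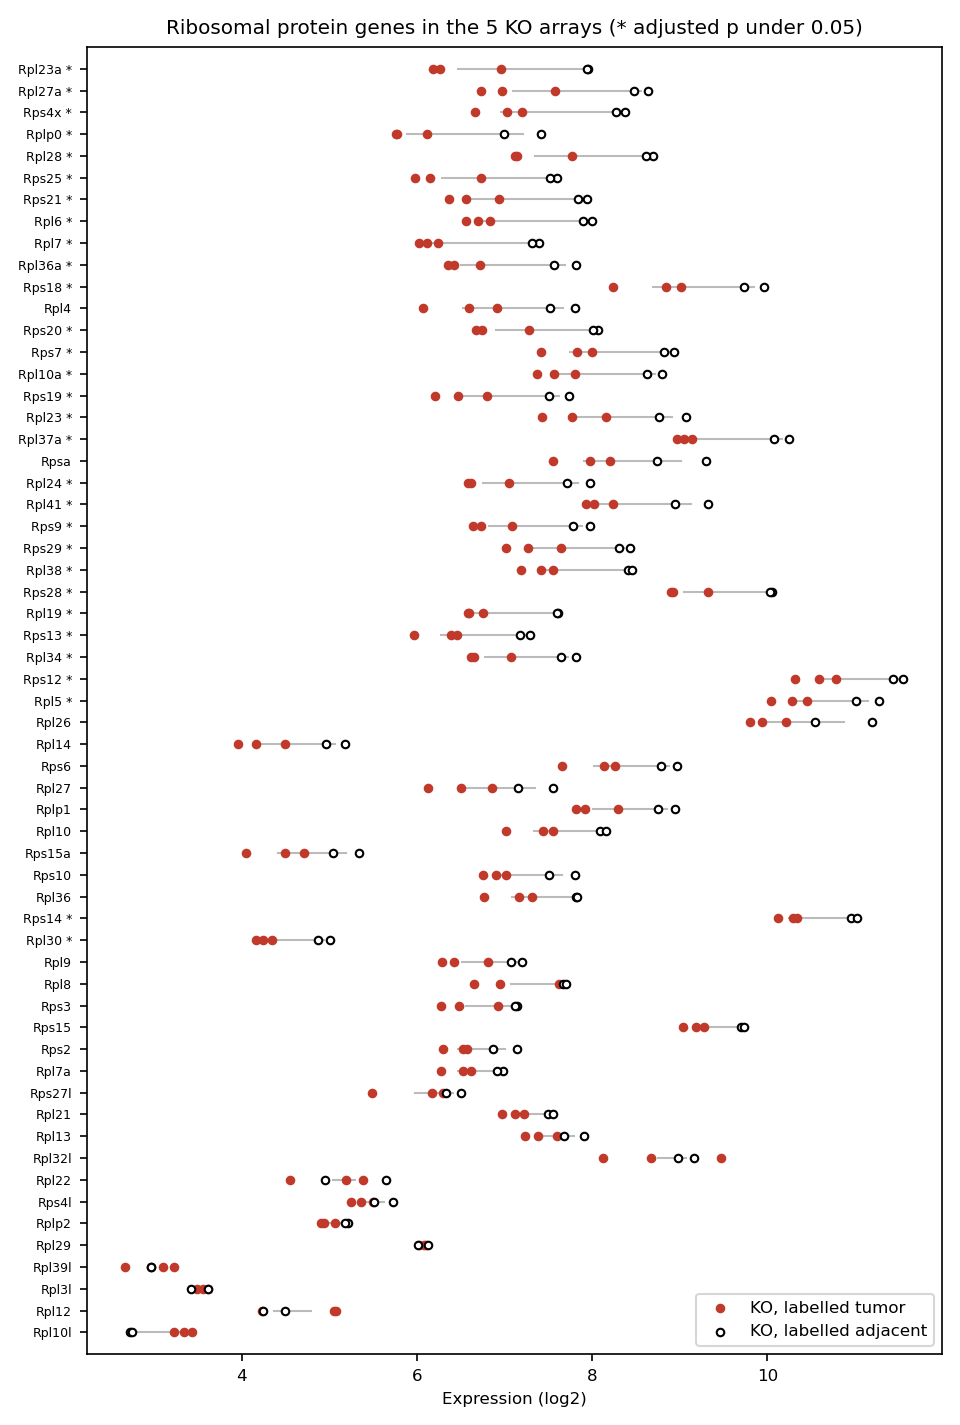
Each line holds 1 of the 59 ribosomal protein genes, ordered by difference, and points are the 5 KO arrays (log2 expression), filled red for tumor and open for adjacent, with a grey line between the group means. Asterisks mark the 30 genes with an adjusted p under 0.05 in the fit over these arrays. In 52 of the 59 genes all red points lie left of both open points.

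Rpl23a, which sits at the exit of the peptide tunnel, had the largest difference. It was 6.27, 6.96 and 6.19 on the KO tumor arrays, against 7.96 and 7.95 on the KO adjacent arrays (-1.48 ± 0.23, log2, SE, n = 3 and 2; limma adjusted p = 0.0256 over the KO arrays). Rpl27a was 6.97, 7.58 and 6.73 on the KO tumor arrays, against 8.64 and 8.47 on the KO adjacent arrays, a difference of -1.46. In both genes all tumor arrays lay below both adjacent arrays, and KO tumor array 2 was the highest of the tumor arrays.

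Rpl28, whose tract is printed above, was 7.15, 7.78 and 7.12 on the KO tumor arrays, against 8.70 and 8.62 on the KO adjacent arrays (difference -1.31). Rpl7 was 6.03, 6.24 and 6.12 on the KO tumor arrays, against 7.39 and 7.31 on the KO adjacent arrays. Its replicates were close, and its difference of -1.22 ± 0.14 (log2, SE, n = 3 and 2) had the smallest adjusted p of the group, 0.00822 in limma. Rpl6 (-1.25) and Rpl36a (-1.19) also fell among the large subunit genes.

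The stalk was uneven. Rplp0 was 5.76, 6.12 and 5.77 on the KO tumor arrays, against 7.00 and 7.42 on the KO adjacent arrays, and fell by 1.32 (limma adjusted p = 0.0182 over the KO arrays). Rplp1, which pairs with Rplp2 on it, differed by -0.84 (adjusted p = 0.0562), and Rplp2 by -0.23 (adjusted p = 0.498). Of the other large subunit genes named by role, Rpl5 fell by 0.89 (adjusted p = 0.0405), with all 5 of its probe sets between -1.43 and -0.89. Rpl10, which joins the subunit late in its assembly, was 7.02, 7.44 and 7.55 on the KO tumor arrays, against 8.09 and 8.15 on the KO adjacent arrays, and its -0.78 did not pass (adjusted p = 0.0746).

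On the small subunit the largest difference was that of Rps4x, the X-linked form of its gene. It was 7.03, 7.20 and 6.66 on the KO tumor arrays, against 8.37 and 8.27 on the KO adjacent arrays (-1.36 ± 0.18, log2, SE, n = 3 and 2; limma adjusted p = 0.0152 over the KO arrays). Rps25, which helps the ribosome start at internal entry sites, fell by 1.27 and Rps21 by 1.26. Rps18 was 9.02, 8.84 and 8.24 on the KO tumor arrays, against 9.74 and 9.96 on the KO adjacent arrays, and fell by 1.15. None of these had a tumor array that reached an adjacent one.

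Rps6, the substrate of the S6 kinases, was 8.26, 8.13 and 7.66 on the KO tumor arrays, against 8.97 and 8.78 on the KO adjacent arrays. The groups did not overlap, but the difference of -0.86 ± 0.19 (log2, SE, n = 3 and 2) missed the threshold (limma adjusted p = 0.0727 over the KO arrays). Rpsa, also known as a laminin receptor, differed by -1.11 (adjusted p = 0.0562). All 20 small subunit core genes were below 0, from -1.36 to -0.54, without overlap of the groups.

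Some members did not share the difference. Rpl29 was 6.10, 6.08 and 6.02 on the KO tumor arrays, against 6.01 and 6.13 on the KO adjacent arrays, with the smallest SD of the 59 genes over these arrays, 0.0484. Rpl12, a base protein of the stalk, was 5.05, 5.08 and 4.24 on the KO tumor arrays, against 4.50 and 4.24 on the KO adjacent arrays (difference 0.42, which did not pass). It was the only core gene above 0, its groups overlapped, and it has a single probe set. Rpl22, which in mouse has the paralog Rpl22l1, differed by -0.26 with overlap.

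Of the relatives, Rpl3l, the striated muscle form of Rpl3, differed by 0.04 and Rpl39l by 0.03 between the KO tumor and KO adjacent arrays. Rpl10l was 3.23, 3.34 and 3.43 on the KO tumor arrays, against 2.73 and 2.75 on the KO adjacent arrays. It was the only one of the 59 genes with all tumor arrays above both adjacent arrays (0.60 ± 0.13, log2, SE, n = 3 and 2; limma adjusted p = 0.0704), against 17.9% of all genes. Rps27l, a p53 target, differed by -0.43, Rpl32l by -0.32 and Rps4l, annotated as a transcribed pseudogene, by -0.25. Muscle markers averaged 4.36 to 4.51 on the KO tumor arrays and 4.16 and 4.32 on the KO adjacent arrays.

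Of 215 probe sets of the 59 genes, 210 were below 0. In 38 of the 39 genes with several probe sets every one was below 0, and the exception was Rpl13. The median spread between the probe sets of a gene was 0.21 (log2), against 0.83 for KO minus floxed tumor epithelium. Several of these probe sets may match processed copies of the same mRNA, so they are not separate measurements.

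The 10 genes with a tract at the annotated start, Rpl32l of the relatives or copies among them, had a median of -0.86 between KO tumor and KO adjacent arrays. All 10 were below 0 and 4 were called lower, beside a median of -0.89 and 30 called over all 59 genes. Among all genes 1.29% were lower and 42.7% below 0. Of the genes printed above, Rpl28, Rps21, Rps18 and Rpl38 (-1.05) fell, Rps6 and Rps10 (-0.76) did not pass, and Rpl27a and Rpl5, without a tract at that base, fell.

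Other genes of translation were set beside the ribosomal protein genes. Of 19 measured other TOP mRNAs, 3 were lower in KO tumor than in KO adjacent arrays and 0 higher, and 18 were below 0 (median -0.46). Among all genes 1.29% were lower, 0.557% higher and 42.7% below 0. Eef1b2, a subunit of the elongation factor that reloads eEF1A, was 6.42, 6.49 and 5.86 on the KO tumor arrays, against 7.55 and 7.42 on the KO adjacent arrays, and fell by 1.23 (limma adjusted p = 0.0293). The poly(A)-binding protein Pabpc1 fell by 1.00 and the initiation factor subunit Eif3e by 0.88. Eef1a1 (-0.41) and Eef2 (-0.38), the main elongation factors, did not pass.

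Of 22 measured initiation factors, 4 were lower and 0 higher, against 1.29% and 0.557% of all genes, with a median of -0.36. They were the helicase Eif4a1 (-1.05), Eif3d (-0.91), Eif3a (-0.89) and the cap-binding protein Eif4e (-0.73). Of 77 mitochondrial ribosomal proteins, which build the separate ribosome of mitochondria, Mrpl33 alone passed (-0.84), and the median was -0.11. That call is near the rate over all genes, of which 1.29% were lower. Fau, Rps3a1 and Rpl7l1, ribosomal proteins or relatives outside the naming rule, had 0 called (-0.74 for Rps3a1, adjusted p = 0.0916).

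Over 14 measured genes that control ribosomal protein translation or respond to its failure, the median was -0.06. In this list 1 gene was lower and 0 higher, against 1.29% and 0.557% of all genes. This was Myc, at 4.54, 4.15 and 3.75 on the KO tumor arrays, against 5.78 and 5.95 on the KO adjacent arrays. Its arrays did not overlap, and the difference was -1.72 ± 0.22 (log2, SE, n = 3 and 2; limma adjusted p = 0.0148 over the KO arrays). Larp1 (-0.14), Mtor (0.10) and Mdm2 (0.14) did not pass. The conflict arrays held Myc at 7.08 and 4.71.

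**Figure D5:**
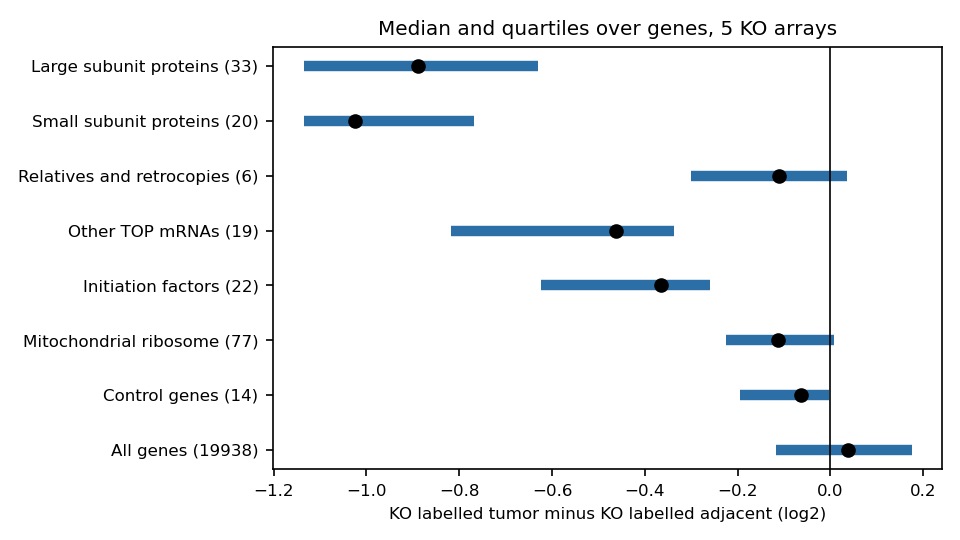
Points are medians and bars the quartiles over the genes of each list of the difference KO tumor minus KO adjacent (log2, 5 KO arrays), with the number of genes measured in parentheses. The large and small subunit core genes (-0.89 and -1.02) lie furthest below 0, other TOP mRNAs (-0.46) and initiation factors (-0.36) lie between, and relatives, mitochondrial ribosomal proteins and all genes lie near 0.

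Markers of cell state and of other cell types moved with this difference in the KO arrays. Of the 11 Wnt target and crypt genes, Myc among them, 6 were lower on the KO tumor arrays and 0 higher, and of 12 absorptive enterocyte genes 4 were higher and 0 lower. Among all genes 1.29% were lower and 0.557% higher. Mast cell markers averaged 3.59, 3.72 and 3.47 on the KO tumor arrays, against 5.29 and 5.12 on the KO adjacent arrays, and 2 of 4 were lower. Of 10 epithelial markers 1 was higher and 1 lower, 1 of 7 fibroblast markers was lower (6 below 0), 1 of 4 neutrophil markers was lower, and 0 of 8 immune markers passed. Of 8 exocrine pancreas markers 7 were above 0 (median 0.72) and 0 passed. They averaged 4.43, 6.58 and 4.46 on KO tumor arrays 1, 2 and 3, against 4.46 and 4.43 on the KO adjacent arrays. Only KO tumor array 2 thus stood above the adjacent arrays by a wide margin. The part of these cells in the ribosomal protein values was not tested.

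The conflict arrays share the adjacent label, but under either reading 1 of them is floxed, so genotype and tissue cannot be told apart in their distance to the KO tumor arrays. Conflict array 1 lay above all KO tumor arrays for 52 of 59 genes, conflict array 2 for 45, KO adjacent array 1 for 53 and KO adjacent array 2 for 54. Their median distance above the KO tumor mean was 1.61 and 0.40 for the conflict arrays and 0.88 and 0.96 for the KO adjacent arrays. Floxed tumor array 3, labelled tumor, was also above the KO tumor mean for 44 of 59 genes. Over all probe sets, conflict array 1 correlated best with floxed tumor array 3 (r = 0.900) and conflict array 2 with KO tumor array 2 (r = 0.973). Exocrine pancreas markers averaged 7.70 on conflict array 1 and 7.97 on floxed tumor array 3, the highest of all arrays, and 5.03 on conflict array 2. The part of pancreas RNA in these values was not tested.

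Within floxed, tumor against adjacent epithelium gave 0 of 59 genes called, with 4 at an unadjusted p under 0.05 (limma), against 0.00502% of all genes called and 12.5% at an unadjusted p under 0.05. The median difference was 0.09 and that within KO -0.89. The median within floxed turned to between -0.55 and -0.09 under 6 alternative settings that left out no array. It was also below 0, at -0.32, without floxed tumor array 3. Rps19 had the smallest p, at 7.08, 6.78 and 8.72 on the floxed tumor arrays, against 5.56 and 5.32 on the floxed adjacent arrays. It was higher in tumor without overlap (2.09 ± 0.48, log2, SE, n = 3 and 2; adjusted p = 0.211). In KO it was 6.80, 6.47 and 6.21 on the tumor arrays, against 7.74 and 7.50 on the adjacent arrays, and lay on the other side. The test of that difference between genotypes gave -3.21 ± 0.68 (unadjusted p = 0.000687, adjusted p = 0.542), so it did not pass over all genes.

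The interaction of genotype and tissue was called for 0 of the 59 genes, against 0.0% of all genes, with 12 (20.3%) at an unadjusted p under 0.05 in limma, against 6.42% of all genes. Its median was -1.09, with 52 below 0, against 47.6% of all genes. Of the 5 floxed arrays in it, 4 had weak signal, and no floxed adjacent array without weak signal carried a settled label.

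Over all 12 arrays, tumor against adjacent epithelium was called for 0 of 59 genes, against 0.0% of all genes, with 6 at an unadjusted p under 0.05 in limma (2.57% of all genes). The median was -0.59, with 55 of 59 genes below 0, against 49.2% of all genes. Rps13, a small subunit protein, had the smallest p. Its level was 6.08 ± 0.48 on the tumor arrays and 7.09 ± 0.55 on the adjacent arrays (log2, SD, n = 6 each), and the groups overlapped. Without the 4 weak-signal arrays 57 of 59 genes were below 0, against 48.1% of all genes, the median was -0.76 and 0 passed, with 35 at an unadjusted p under 0.05, against 6.79% of all genes.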

How the data were processed

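RNA from laser-cut epithelium was labelled with a GeneChip WT Pico kit, per the labels' protocols. The deposited table holds the authors' log2 expression values of 12 arrays, and the submitters' processing notes name Partek and RMA, without versions. Further filters by the authors are not given in the sources used here, and these values were used without further normalization.

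Of 35556 probe sets, 21789 had a single symbol in the platform's annotation, 1621 several and 12146 none. A gene took its probe set of the highest mean over 12 arrays, which gave 19938 genes. Promoter windows came from RefSeq (GRCm38.p6).

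limma 3.58.1 in R 4.3.3 (lmFit and eBayes, two-sided, Benjamini-Hochberg over all genes, called under 0.05) was fitted to the 10 arrays of the 4 groups together. The arrays with conflicting genotype entered only tissue over all arrays. A fit over the 5 KO arrays was added. The steps were tested on simulated data, with the same SD per gene on every array, so weak-signal arrays were not modelled. In the joint fit, log2 differences of 1 were recovered in 14% of cases between KO tumor and KO adjacent arrays. Between KO and floxed tumor arrays it was 4%. A count of 0 calls there does not show that differences of that size are absent. Precision is limited by how few arrays each group holds.

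The members and lists were chosen with earlier results of these data known, and the Wnt and enterocyte lists after the data were seen. Named genes were up to 10 called members per direction without overlap, or the 3 of smallest p, members by role, those of extreme level or SD, and up to 4 genes per companion list. Eef1a1, Eef2, Eif3a, Pabpc1, Rpl7a, Rpl22, Rpl38, Rpl41, Rps3, Rps10 and Rps18 fall outside that rule and were chosen after their values were seen.

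Same-numbered KO and floxed tumor arrays deviated together over all genes (r = 0.105, 0.121 and 0.348), although no label says what a number shares, and KO tumor array 1 correlated better with floxed tumor array 2 (0.246). Over the 59 genes the same-numbered arrays had r of only -0.0447, 0.0237 and 0.0618. The replicate block assumes that the numbers pair arrays, which these values do not settle. Alternatives were other scaling, a filter on the dimmest 30% of genes, the mean of probe sets, only the arrays compared, the replicate block, both readings of the conflicting labels, array weights, and leaving out arrays.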

Additional observations from a re-analysis of the deposited data

Results flagged for a closer look

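Of 16 groups of values tested for a sample that stands apart, chance picks about 1 in 20. Rpl27a, a large subunit protein, read 9.90 (log2) on conflict array 1, which lay far above the other 5 arrays labelled adjacent, at 8.64 and 8.47 on the KO arrays, 8.15 and 7.93 on the floxed arrays and 7.89 on conflict array 2.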

How the results depend on the processing

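In KO against floxed tumor epithelium the 1 call of the 59 genes became 0 with the mean of a gene's probe sets and with the conflicting labels read by title, 3 with the replicate block, 20 with array weights (18 higher and 2 lower) and 33 without weak-signal arrays, where the median turned to -0.65. The shares of all genes called were 0.983%, 0.0%, 3.92%, 14.6% and 19.4%. The median of 0.45 became 0.17 after quantile normalization, 0.0645 with arrays brought to 1 median and SD (32 of 59 above 0) and 0.75 with array weights. Leaving out 1 array gave 1 to 33 calls, against 0.0502% to 29.1% of all genes, both highest without floxed tumor array 3. The medians were 0.066 to 1.04.

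In KO against floxed adjacent epithelium the 13 higher calls became 3 after quantile normalization and 3 with arrays brought to 1 median and SD, of which 2 were higher and 1, Rpl29, lower in each. They became 7 without the dimmest genes, 36 with only the arrays compared, 36 with array weights (35 higher and 1 lower in each), 0 by title and 1 by genotype field. The shares of all genes called were 0.642%, 0.823%, 3.25%, 17.2%, 20.2%, 0.00502% and 0.241%, beside 6.06%. The replicate block gave 25 (12.3% of all genes), but 2 pairs with a correlation of 0.0099 do not show pairing. Medians were 0.92 after quantile normalization, 0.80 with 1 median and SD and 0.69 by genotype field. With 1 median and SD, Rps12 reversed to -0.31. Leaving out 1 array gave 0 to 4 calls and medians of 1.41 to 1.55.

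Tumor against adjacent epithelium in KO had 0 calls in the joint fit and 37 with array weights. It had 30 with only the arrays compared and 30 without weak-signal arrays. Both of these fits take their spread from the 5 KO arrays, as does the fit over the KO arrays alone. Their 30 calls are thus 1 result and not separate support. Over the KO arrays alone, the 30 calls became 0 with the conflict array that is KO by title (median -1.10) and 0 with the one that is KO by genotype field, and 0 to 36 without 1 array. Medians without 1 array were -0.985 to -0.860 in both fits, which share the group means. The joint fit called 0.0201% of all genes. The share was 1.85% with only the arrays compared, 1.85% without weak-signal arrays and 5.23% with array weights. In the fit over the KO arrays alone, 20 members were lower after quantile normalization and 25 with 1 median and SD. Without the dimmest genes 27 of 56 members were lower, and with array weights 37 were lower and 1 higher. The shares of all genes called were 2.07%, 2.07%, 2.14% and 3.08%.

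Between tumor and adjacent epithelium in floxed the median of 0.09 became -0.55 by genotype field, -0.15 by title, -0.18 after quantile normalization, -0.10 with 1 median and SD, -0.10 with array weights and -0.09 with the replicate block, and leaving out 1 array gave 0 to 2 calls and medians of -0.32 to 0.44. The interaction median of -1.09 became -0.12 by genotype field, -0.67 after quantile normalization, -0.60 with 1 median and SD and -0.70 with array weights, with 0 to 0 calls and medians of -1.36 to -0.60 without 1 array. The 2 calls within floxed came without floxed tumor array 2, where 1.72% of all genes were called. Over all arrays, array weights gave 6 calls (0.637% of all genes), and leaving out 1 array 0 to 0 calls and medians of -0.88 to -0.39. The causes were not tested.

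Comparisons with floxed adjacent epithelium were not possible without weak-signal arrays, since no array remained. The replicate block changed no other count of calls by over 1.5 times. Where leaving out an array left 1 in a group, that array was assumed to vary like the others.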
